A study of Mus musculus with 16 samples.

Results

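The lung of mice fasted for 24 h was compared with the lung of fed mice by short-read RNA-Seq. The comparison used every gene of 2 libraries, Lung fed and Lung fasting, out of 16 libraries from 8 tissues in the series. The 2 libraries were taken by their tissue and treatment labels, and the tissue was chosen with earlier results of these data known. Each library was made from tissue pooled from 3 male C57BL/6 mice of 1 treatment, bought at 12 weeks of age and kept for 10 to 14 days or longer before use. No gene was deleted, no transgene was carried and no drug was given; the fed mice are the controls, and both groups differ only by food withdrawal as far as the labels and methods say. Because there was 1 pooled library per treatment, the spread between mice was not measured, and the test on the reads compares these 2 libraries and not the conditions. The fed lung library held 30058806 counts and the fasting lung library 36069968, so that 3 counts correspond to 0.0998 CPM (counts scaled to a library total of 1000000) in the fed library and to 0.0832 CPM in the fasting library.

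The lung is a surface for gas exchange lined by flat alveolar type 1 cells and by surfactant-making alveolar type 2 cells, while its airways are lined by secretory club cells and ciliated cells. It also holds a dense capillary bed, resident macrophages and many circulating or resident leukocytes. In fasting, blood insulin falls and glucocorticoid hormone rises, fat is released from adipose tissue, and tissues change from glucose towards fatty acids as fuel. Glucocorticoid hormone acts through a nuclear receptor that binds DNA, and in the lung it is best known for promoting maturation of the alveoli and for damping inflammation.

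The labelled tissue was checked against its markers. Scgb1a1, the main secreted protein of club cells, was at 13119 CPM in fed and 13985 CPM in fasting lung. Sftpc, the surfactant protein made by alveolar type 2 cells, was at 5835 CPM in fed and 4848 CPM in fasting lung. In the other 14 libraries Scgb1a1 did not exceed 40.8 CPM and Sftpc did not exceed 13.8 CPM, so both libraries carried the labelled tissue.

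A gene was called higher or lower in fasting when its log2 fold change exceeded 0.5 in size and Fisher's exact test on the counts passed its threshold, both with CPM on library totals and with trimmed mean of M values (TMM) factors, which rescale the libraries towards no change in most genes. The words rose and fell are kept for genes called this way. Of 31101 genes with a count in lung, 835 were higher in fasting (2.68%) and 1584 were lower (5.09%). Among the 17575 genes with at least 1 CPM in a lung library, 4.23% were higher and 7.86% lower, which is the closer background for the lists whose members nearly all reach that level. In a few lists many members do not, such as secreted defence (21 of 30 genes at that level) and cytokines (23 of 33), and for these neither background is the closer. Library totals alone gave 835 higher and 2019 lower genes (2.68% and 6.49%), of which 29.3% were higher, whereas TMM factors alone gave 1099 and 1584 (3.53% and 5.09%), of which 41.0% were higher. Over all genes that reached 1 CPM, the log2 fold change had a median of -0.09 on library totals and -0.01 with TMM factors. Changes are given on library totals. TMM factors add 0.08 to each of them and DESeq2's size factors add 0.10, and a list median closer to 0 than these shifts has no direction of its own. In bulk tissue, fewer cells of a type and less RNA per cell cannot be told apart.

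Genes of thymus and heart were kept apart from the lung's own genes, since markers of these organs, which lie beside the lung in the chest, differed between the 2 libraries. Genes of the oesophagus were not kept apart in the selection and are described with them. Trbc2, Trbc1 and Lck of the mature T cell list, and Gm36931 inside the thymocyte gene Satb1, also stayed in the selection. They stand among the largest falls, and the part of thymus in them was not tested. Rag1, which encodes the recombinase that assembles antigen receptors in developing lymphocytes, was at 60.9 CPM in fed lung and 0.776 CPM in fasting lung (1832 and 28 counts). Dntt, the polymerase that adds bases at the junctions of those receptors, was at 13.9 CPM in fed and 0.166 CPM in fasting lung. Arpp21, a gene of immature thymocytes, was at 16.4 CPM and 0.139 CPM. For Rag2, the partner of Rag1, 56 counts in fed and 2 counts in fasting lung gave a fed level 33.6 times the fasting level (95% counting interval 8.88 to 284). Ptcra, the surrogate chain of the T cell receptor in thymocytes, had 10 counts in fed and 1 count in fasting lung, 12 times as much in fed (1.71 to 521).

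Markers of the supporting cells of the thymus moved with the thymocyte genes. Of the 6 genes of the thymic epithelium list, 5 fell and Foxn1 was not called. The falls differed in size, and Ccl25 was at 16.5 CPM in fed and 10.6 CPM in fasting lung. Prss16, a protease of thymic cortical epithelium, was at 10.2 CPM in fed and 0.305 CPM in fasting lung, and Psmb11, the proteasome subunit of the same cells, had 53 and 2 counts. Of the 27 genes of the thymocyte list, 22 fell and none rose, with a median log2 fold change of -1.61. Their summed level was 535 CPM in fed and 198 CPM in fasting lung. Of the 12 members that define thymocytes, 9 fell. Those that did not pass include Cd1d1 (13.7 CPM in fed, 11.6 CPM in fasting) and Aqp11 (8.22 and 9.29 CPM), both of which were higher in some other tissue than in lung. In the 7 other tissues, Rag1 did not exceed 1.15 CPM in a library.

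Cardiac genes were also lower in fasting lung, and the atrial ones led. Bmp10, a growth factor of atrial muscle, had 1701 counts in fed lung (56.6 CPM) and 1 count in fasting lung (0.0277 CPM), a ratio of 2041 with a 95% counting interval from 366 to 80669. Nppa, the atrial natriuretic peptide, was at 198 CPM in fed and 27.4 CPM in fasting lung. Nppb, the related B-type peptide, was at 3.29 CPM and 0.360 CPM. The atrial light chains followed, with Myl7 at 88.4 and 35.5 CPM and Myl4 at 115 and 47.0 CPM. By contrast, the ventricular light chain Myl2 was at 4.96 CPM in fed and 5.41 CPM in fasting lung.

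Most of the cardiomyocyte list stayed well above the floor in both lungs. Of its 40 members, 22 fell, 1 rose (Tecrl, 4.03 CPM in fed and 6.65 CPM in fasting) and 17 were not called, with a median of -0.62. The 6 members with the most counts were Ttn, the giant spring protein of the sarcomere (1096 and 714 CPM), Myh6, the main cardiac myosin heavy chain of the adult mouse (529 and 326 CPM), Nppa, Actc1 (127 and 72.8 CPM), Myl4 and Ryr2 (106 and 80.3 CPM). All 6 were lower in fasting, and Ryr2, the calcium release channel, was not called. The list summed to 2993 CPM in fed and 1730 CPM in fasting lung, which is 1.63% and 1.01% of its sum in the heart libraries of the same treatment. In the heart libraries, Bmp10 was at 0.0581 CPM in fed and 0.262 CPM in fasting heart, and Nppa at 113 and 119 CPM.

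**Figure D1:**
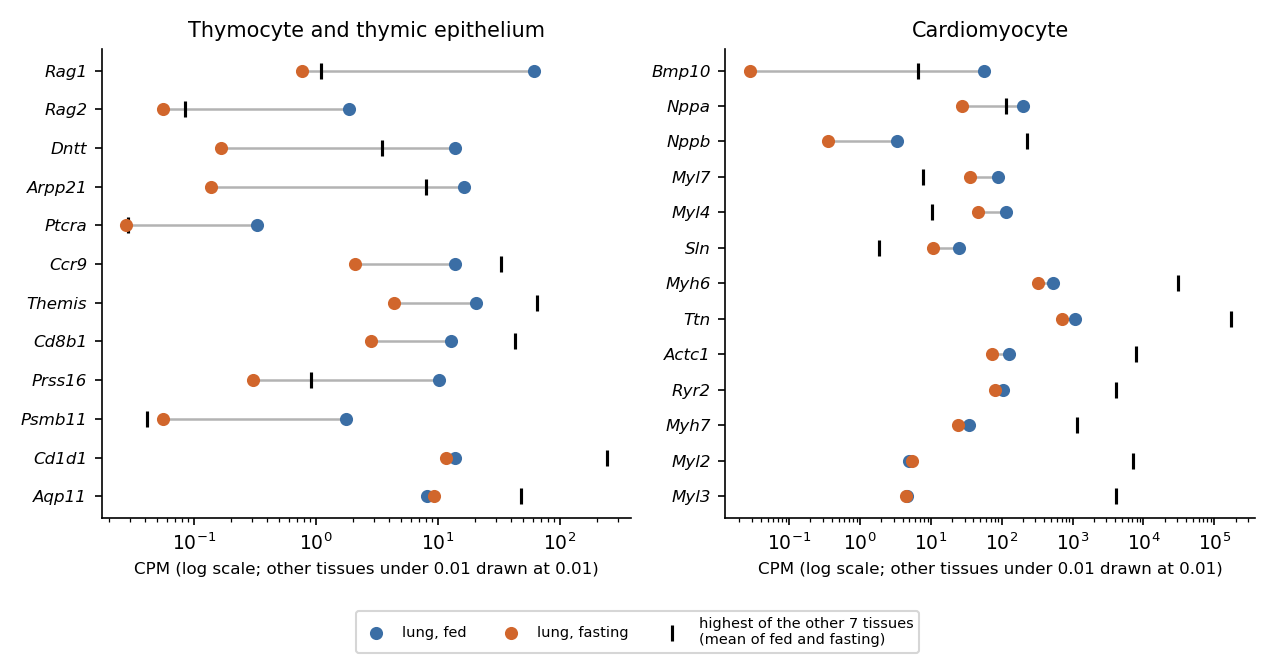
CPM (log axis) of thymus genes (left) and cardiac genes (right) in fed lung (blue) and fasting lung (orange), with a black tick for the highest of the other 7 tissues. Rag1 went from 60.9 to 0.776 CPM and Bmp10 from 56.6 to 0.0277 CPM, while Aqp11 and Myl2 had nearly the same level in both lungs.

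Some genes of stratified epithelium were higher in fasting lung. Of 11 genes with a count in the oesophagus and thyroid list, 4 rose (Krt4, Krt13, Sprr3 and Calca), 1 fell (Krt14, a basal keratin, 0.865 to 0.277 CPM) and 6 were not called, among them Krt5, Sprr1a and Lor. Krt4, a keratin of the oesophageal lining, had 4 counts in fed and 513 counts in fasting lung (0.133 and 14.2 CPM), a ratio of 107 with a 95% counting interval from 41.5 to 394. Its partner keratin Krt13 also had 4 counts in fed lung and had 431 in fasting lung (0.133 and 11.9 CPM). Sprr3, a protein of the cornified envelope, had no count in fed lung, which allows up to 0.0998 CPM, and 35 counts in fasting lung (0.970 CPM). Among the other tissues neither keratin exceeded a mean of 0.129 CPM. Both keratins head the list of rises given by the selection rule, and the part of neighbouring tissue in them was not tested.

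With the thymocyte, thymic epithelium, cardiomyocyte, skeletal muscle and adipocyte lists set aside, together with genes at least 20 times higher in another tissue, the calls on library totals were 774 higher and 1787 lower genes instead of 835 and 2019. Some called members of the lists below are shared with these sets. The adipocyte list shares Plin4 with the glucocorticoid list, Lipe and Fabp4 with fatty acid oxidation and Thrsp with fatty acid synthesis. Those of the mature T cell and alveolar macrophage lists are named with them.

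Genes that respond to glucocorticoid hormone made up most of the 12 largest rises after the first 4 (Krt4, Krt13, Doc2b and Tcf23), which are outside that list. Of the 39 genes of that list, 26 rose and none fell (4.23% and 7.86% of genes at 1 CPM or more, a level that all 39 reached), and 38 had a positive log2 fold change, with a median of 1.0 against -0.09 over all genes at 1 CPM or more. Fkbp5, a co-chaperone that holds the glucocorticoid receptor in its inactive form, was at 20.0 CPM in fed and 112 CPM in fasting lung (log2 fold change 2.49, counting error 0.06). It lies at chr17:28399094-28517527 on the minus strand of GRCm38. AC154912.5, a transcript on the same strand inside Fkbp5, was at 2.0 CPM and 11.1 CPM, and its reads may come from the host gene. Zbtb16, a zinc finger repressor at chr9:48654297-48836222, was at 72.7 CPM in fed and 383 CPM in fasting lung. Tsc22d3, the glucocorticoid-induced leucine zipper that restrains inflammatory transcription, was at 177 CPM and 598 CPM.

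Further members of the list were low in fed lung and many times higher in fasting lung. Fam107a, an actin-binding protein, was at 9.05 CPM in fed and 80.6 CPM in fasting lung (3.15 on the log2 scale). Hif3a, a member of the hypoxia-inducible factor family, was at 3.23 CPM and 25.7 CPM. Map3k6, a stress-responsive kinase, was at 25.7 CPM in fed and 145 CPM in fasting lung. Ddit4, an inhibitor of the growth-controlling kinase mTORC1, was at 12.7 CPM and 69.4 CPM. The cell cycle inhibitor Cdkn1a went from 17.2 to 71.1 CPM, and Klf15, a transcription factor of amino acid and fat use, from 37.7 to 110 CPM. Smaller rises were those of Per1 (88.1 to 160 CPM), Nfkbia, the inhibitor of NF-kappa B (92.9 to 191 CPM), and the metallothioneins Mt1 (23.4 to 38.7 CPM) and Mt2 (5.12 to 10.7 CPM). The gene of the receptor itself, Nr3c1, was at 299 CPM in fed and 268 CPM in fasting lung and was not called. Sgk1, a kinase that controls sodium channels, and Dusp1, a phosphatase of stress kinases, are often used as glucocorticoid readouts. They were not called either, at 134 and 156 CPM for Sgk1 and 273 and 309 CPM for Dusp1. Outside the list, the largest rises after the keratins were those of Doc2b, a calcium sensor of vesicle release (1.10 CPM in fed and 12.5 CPM in fasting lung, overlapped by Gm12339 on the opposite strand), and Tcf23, a helix-loop-helix factor (1.80 and 17.0 CPM).

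The receptor's palindromic site was searched in the promoters of the list to show its sequence beside the values. The letters searched were GNACA, any 3 bases and TGTNC on both strands of the window from 250 bases before to 50 bases after the start site, in RefSeq promoters of build GRCm38.p6. The letter N may be any base. Of the 39 genes, 34 had a promoter in that table and 4 had a match (11.8%), while 145 of all 27025 genes had one (0.537%). The match in each is in capitals within 28 bases read 5′ to 3′ on the strand of the gene, and the windows lie between 188 and 94 bases before the start site at the first capital.
Map3k6, chr4:133240630-133240657, plus strand: aatagggGCACAGGCTGTTCcggaagtg
Fam107a, chr14:8309877-8309904, minus strand: gtggcttGGACATGGTGTTCtgagtctc
Mt1, chr8:94178988-94179015, plus strand: actatagGGACATGATGTTCcacacgtc
Sgk1, chr10:21993695-21993722, plus strand: gcggaaaGAACAGAATGTTCtcggagat
Of these 4 genes, Map3k6, Fam107a and Mt1 rose and Sgk1 was not called. A match is a description of the letters and not a bound site.

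Some genes of fat use also rose, of which Pdk4 and Angptl4 are counted in the glucocorticoid list as well. Of 42 genes of fatty acid oxidation and PPAR targets, 18 rose, none fell and 24 were not called, with a median of 0.38. Pdk4, the kinase that shuts glucose carbon out of the mitochondrion, was at 13.2 CPM in fed and 102 CPM in fasting lung. Angptl4, a secreted inhibitor of lipoprotein lipase at chr17:33773750-33781830, was at 32.2 CPM and 188 CPM. Ucp2, a mitochondrial carrier, went from 234 to 630 CPM. The acyl-CoA thioesterase Acot1 was at 17.3 CPM in fed and 73.9 CPM in fasting lung, although its reads can be shared with its close copy Acot2 (16.1 and 30.0 CPM). Cpt1a, which admits fatty acids to the mitochondrion, went from 137 to 255 CPM. Cd36, the fatty acid transporter with the most counts of this list, was at 1463 and 1833 CPM and was not called.

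Markers of fat cells moved in the same direction as some of these genes. In the adipocyte list of 16 genes, 9 rose and 3 fell. Of these 9, Lipe and Fabp4 are also counted among the genes of fat use that rose. Adipoq, the hormone of fat cells, was at 9.32 CPM in fed and 13.9 CPM in fasting lung, while Lep was at 0.932 and 0.360 CPM. Fabp4 (28.4 and 60.8 CPM) and Cidec (18.3 and 35.5 CPM) are also in the list of alveolar macrophages, of which 5 of 21 rose and none fell, among them Chil3 (361 and 626 CPM) and Ear1 (12.9 and 21.5 CPM). Pck1, a gluconeogenic enzyme, was at 19.9 and 46.2 CPM. The summed level of the adipocyte list went from 266 to 435 CPM, and its part in the rise of fat use genes was not tested.

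A minority of FoxO target and energy stress genes rose. In the list of FoxO targets and energy stress, 10 of 34 rose, 2 fell and 22 were not called, with a median of 0.32. Of these 10, Ddit4 and Klf15 are also counted in the glucocorticoid list. Txnip, an arrestin-like protein that limits glucose uptake, was at 821 CPM in fed and 1903 CPM in fasting lung. Foxo3 itself went from 169 to 314 CPM and Trp53inp1 from 163 to 333 CPM. The 2 that fell were Gadd45a (10.6 to 6.65 CPM) and Sesn3 (96.1 to 62.7 CPM). In insulin and IGF signalling, only Igfbp6 rose (131 to 217 CPM) and only Igf1 fell (24.2 to 12.5 CPM) among 24 genes with a count. Of 33 genes of glucose use, 3 rose (Pdk4, Txnip and Pfkfb3, the last from 81.0 to 134 CPM) and Ppp1r3c fell, while 29 were not called. The median was -0.18, with 24 of the 33 log2 fold changes negative.

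Clock genes that rose were period genes, a cryptochrome and clock-controlled bZIP factors. Of 18 genes, 6 rose and none fell: Per2 (31.5 to 79.1 CPM), Tef (174 to 361 CPM), Per1, Hlf (12.7 to 20.7 CPM), Per3 and Cry2. Per1 is also counted in the glucocorticoid list. The activators Clock (190 and 212 CPM) and Arntl were not called. All mice were killed at the same hour of the morning according to the methods.

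**Figure D2:**
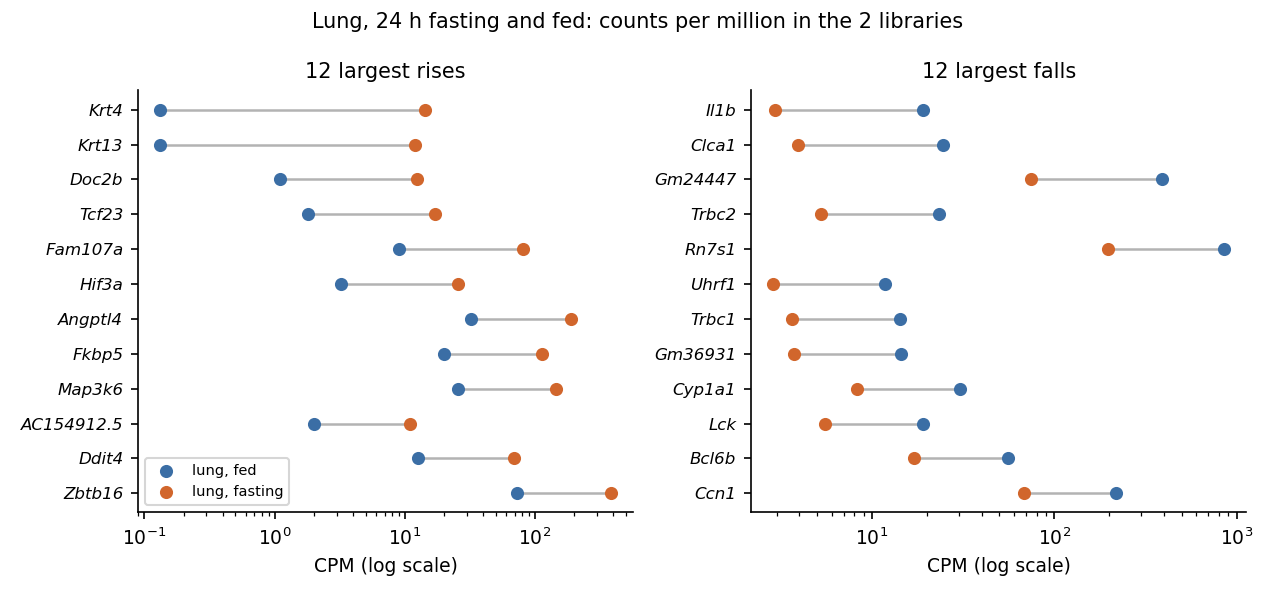
CPM (log axis) in the fed (blue) and fasting (orange) lung library for the 12 largest rises and the 12 largest falls given by the selection rule, 1 point per library. Zbtb16 went from 72.7 to 383 CPM and Ccn1 from 217 to 68.3 CPM.

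Some genes of airway secretory cells rose, and the main club cell marker was not called. Of 18 genes of the club and airway secretory list, 7 rose, none fell and 11 were not called. In the list of secreted defence and acute phase proteins, 7 of 30 rose, 2 fell (Chil4 and Retnla) and 21 were not called, with a median of 0.05. The 2 lists share the rises of Bpifa1, Bpifb1, Scgb3a1, Muc5b and Reg3g. Bpifa1, a surfactant-like defence protein of airway fluid, was at 212 CPM in fed and 861 CPM in fasting lung (log2 fold change 2.02). Its relative Bpifb1 was at 78.1 CPM and 192 CPM. The secretoglobin Scgb3a1 went from 116 to 260 CPM, the gel-forming mucin Muc5b from 172 to 342 CPM and the antibacterial lectin Reg3g from 31.0 to 64.3 CPM. Selenbp1 (497 to 1031 CPM) and Gsta3 (122 to 204 CPM) were the remaining 2 and are not secreted proteins. By contrast, Scgb1a1 and Cyp2f2, the club cell cytochrome, gave log2 fold changes of 0.09 and 0.00, and Scgb3a2 was at 550 and 496 CPM. Ltf, the iron-binding lactoferrin found in airway glands and neutrophil granules, rose from 37.2 to 132 CPM. Clca1, a secreted product of goblet cells, fell from 24.6 to 3.94 CPM.

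Enzymes that oxidise or conjugate foreign compounds rose in part. Of 33 genes, 12 rose and 1 fell, with a median of 0.37. Of these 12, Sult1a1 is also counted in the glucocorticoid list and Gsta3 in the club list. The median was 0.24 over the 31 members at 1 CPM or more and 0.23 with a pseudocount of 1 CPM. The flavin monooxygenase Fmo2, the main form of the lung, was at 870 CPM in fed and 1955 CPM in fasting lung. Sult1a1, a sulfotransferase, went from 39.7 to 161 CPM, Cyp2e1 from 16.4 to 45.6 CPM, and Cyp2b10 from 215 to 483 CPM. Cyp2a5 (46.8 to 119 CPM) belongs to a family of close copies between which reads may be split. The 1 that fell was Cyp1a1, the classical target of the aryl hydrocarbon receptor at chr9:57687928-57703824, from 30.2 to 8.26 CPM. Its relative Cyp1b1 was not called.

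**Figure D3:**
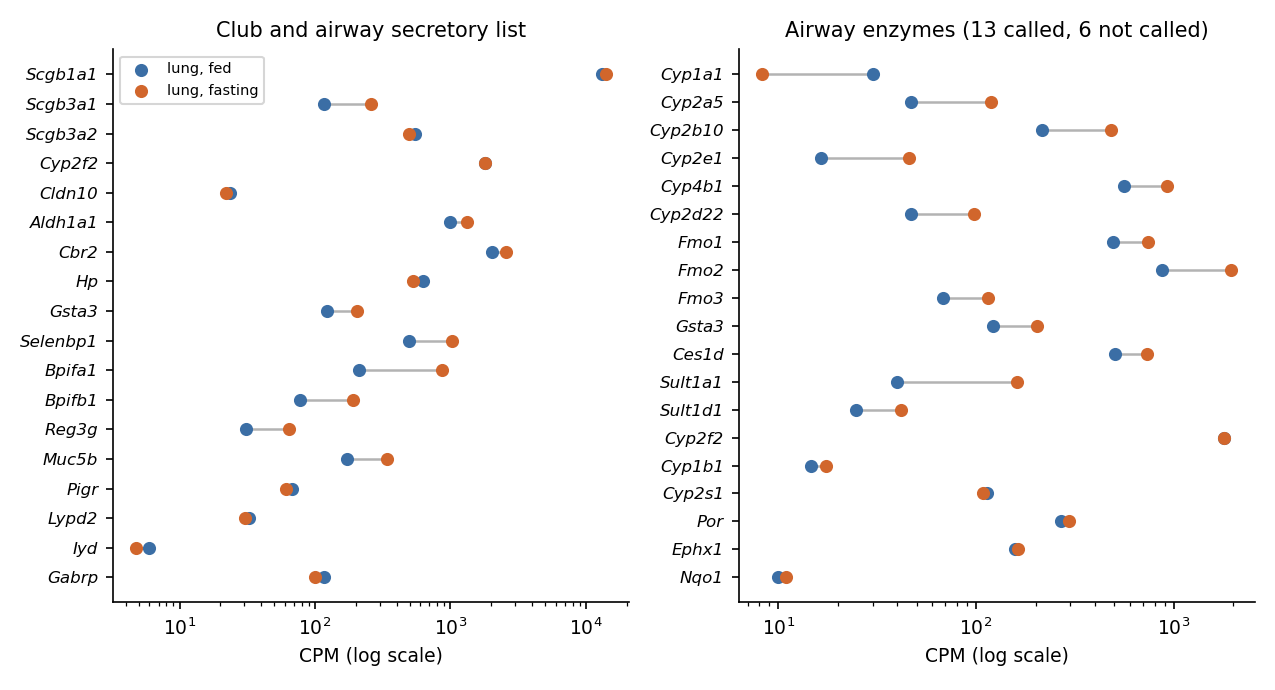
CPM (log axis) in the fed (blue) and fasting (orange) lung library for the 18 genes of the club and airway secretory list (left) and for 13 called and 6 uncalled enzymes (right). Bpifa1 went from 212 to 861 CPM, whereas the points of Scgb1a1 and Cyp2f2 nearly coincide.

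The alveolar epithelium and the ciliated cells differed little. In the alveolar type 2 list, 1 of 22 rose and 2 fell, with a median of -0.15. Sftpd, a collectin of lung defence, was at 622 CPM in fed and 917 CPM in fasting lung, and Sftpa1, its relative, was at 3045 and 4086 CPM and was not called. Sftpb (2309 and 2503 CPM) and the lipid pump Abca3 (730 and 718 CPM) were not called. The 2 that fell were Hc, complement component C5 (939 and 626 CPM), and Rbpjl (52.5 and 34.7 CPM), whose span overlaps Matn4 on the opposite strand. In the alveolar type 1 list, Rtkn2 (352 and 501 CPM) and Lmo7 (688 and 991 CPM) rose and 17 of 19 were not called. None of 26 ciliated genes was called.

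Lipid and ion handling around the alveolus showed single genes rather than whole lists. Among 26 genes of surfactant lipid synthesis, 22 were not called, with a median of 0.02. The phosphatidate phosphatases Lpin1 (73.4 to 142 CPM) and Lpin2 (262 to 560 CPM) rose. Fabp5, a fatty acid carrier, fell from 74.3 to 37.8 CPM, and Mfsd2a, a carrier of lysophospholipid, from 9.81 to 6.10 CPM. Among 22 genes of ion and water transport, 17 were not called, with a median of 0.04. In this list 3 rose: the sodium channel subunit Scnn1a (215 to 323 CPM), the sodium pump subunit Atp1b1 (185 to 297 CPM) and the low Aqp3 (0.998 to 2.44 CPM). Kcnn4 and Slc26a4 fell, from 8.75 to 4.24 CPM and from 6.35 to 3.38 CPM. For comparison, 4.23% of all genes at 1 CPM or more were higher and 7.86% lower.

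Part of the genes of lipid synthesis fell. Of 27 genes of cholesterol synthesis and SREBP2 targets, 15 fell, 1 rose and 11 were not called, with a median of -0.63. Hsd17b7 was at 25.6 CPM in fed and 12 CPM in fasting lung, and Dhcr7, a late enzyme of the pathway, at 11.2 and 5.41 CPM. Hmgcs1, an early enzyme of the pathway, fell as well (148 and 90.0 CPM). The exception was Pmvk, which phosphorylates mevalonate phosphate and rose from 29.3 to 61.7 CPM. Of 24 genes of fatty acid synthesis, 7 fell, 1 rose and 16 were not called. Scd1, which puts the double bond into stearate, was at 2690 CPM in fed and 905 CPM in fasting lung, and Fasn, the fatty acid synthase, at 1101 and 692 CPM. Acacb rose from 45.5 to 66.2 CPM.

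Most endothelial genes were not called and a few moved. In the list of 35 genes, 2 rose and 5 fell, with a median of 0.06, and Pecam1 and Cdh5 were not called. Lyve1, a hyaluronan receptor of lymphatic vessels and some macrophages, was at 204 CPM in fed and 585 CPM in fasting lung. Hpgd, which degrades prostaglandins, went from 404 to 722 CPM. Apln and Aplnr, the peptide apelin and its receptor, both fell, from 58.6 to 21.6 CPM and from 112 to 54.2 CPM. Bcl6b, a transcriptional repressor, fell from 56.0 to 17.0 CPM.

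Most matrix genes were not called. Of 44 genes, 8 fell, 3 rose and 33 were not called. Among all genes at 1 CPM or more, 7.86% were lower and 4.23% higher. The median of the list was -0.20, with 31 of the 44 log2 fold changes negative. Tnc, the matrix protein tenascin C, was at 44.1 CPM in fed and 18.5 CPM in fasting lung, and Col15a1 at 15.4 and 7.37 CPM. Col3a1 fell from 684 to 359 CPM, and Serpinh1, the chaperone of collagen folding, from 298 to 155 CPM. Against this, Lox, the enzyme that cross-links collagen and elastin, rose from 51.8 to 152 CPM. Col4a1 (1254 and 1391 CPM) and Sparc (1040 and 992 CPM), the members with the most counts, were not called.

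Genes of antigen presentation through MHC class II fell. All 11 genes of the list were called lower, with a median of -0.98 and a range from -1.38 to -0.71. Cd74, the invariant chain, was at 822 CPM in fed and 462 CPM in fasting lung, and H2-Aa, a chain of the presenting molecule, at 403 and 227 CPM. Ciita, the master activator of these genes, was at 75.9 and 32.0 CPM, and the accessory H2-Eb2 at 6.42 and 2.47 CPM. These genes are expressed by B cells and dendritic cells among others. Beside them, 17 of 18 B cell genes fell, with a median of -0.96, and 4 of 10 dendritic cell genes fell, with a median of -0.60. The part of these cells in the MHC class II result was not tested. In the other 7 tissues the medians of the MHC class II list lay between -0.74 (heart) and -0.01 (white adipose), with spleen at -0.16.

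Interferon-induced genes were also lower. Of 23 genes of the interferon gamma list, 14 fell and none rose, with all 23 log2 fold changes negative and a median of -0.87. Genes of natural killer cells (15 of 18) and mature T cells (18 of 23) fell too, and their part in this result was not tested. Over members at 1 CPM or more, the median was -0.78 in lung and lay between -1.03 (muscle) and -0.14 (spleen) in the other 7 tissues. Gbp4 was at 114 CPM in fed and 36.7 CPM in fasting lung. The related guanylate-binding proteins Gbp2 (99.3 CPM in fed lung, log2 fold change -0.99) and Gbp9 (136 and 82.0 CPM) fell too, though close copies within this family can share reads. The chemokine Cxcl9 was low in both lungs, at 0.632 and 0.194 CPM. Irf1, an upstream regulator, was at 132 and 99.8 CPM and was not called. In the type I interferon list, 6 of 26 fell and none rose, led by Oas3 (4.86 and 1.80 CPM) and Zbp1 (7.35 and 2.88 CPM).

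The core of the interferon-stimulated response element was searched as TTTC, any 2 bases and TTTC again on both strands of the same promoter windows. Of 23 genes of the interferon gamma list, 13 had a promoter and 10 had a match (76.9%), against 1079 of 27025 genes (3.99%). Of these 10 genes, Irgm1, Gbp7 and Tgtp1 were not called. The windows of 4 called members are shown on the strand of the gene, with the match in capitals. In Igtp and Cxcl10 the capitals are the same motif read on the opposite strand.
Gbp2, chr3:142620595-142620622, plus strand: ctcttttagTTTCACTTTCactgtctta
Gbp5, chr3:142496760-142496787, plus strand: cttgtgtagTTTCAATTTCagtttagag
Igtp, chr11:58199513-58199540, plus strand: ctaggaactGAAACTGAAAgctgttcgg
Cxcl10, chr5:92349084-92349111, minus strand: cacgctttgGAAAGTGAAActtacctca
Gbp2 is given above, and Gbp5 stood at 16.9 and 7.51 CPM, Igtp at 37.8 and 19.8 CPM and Cxcl10 at 1.16 and 0.499 CPM. In the MHC class II list the Y box, searched as CTGATTGG on both strands, was found in 4 of 8 promoters against 4.70% of all genes. In the cholesterol synthesis list the sterol regulatory element, searched as CACCCCAC on both strands, was found in 2 of 19 promoters (10.5%), those of Hmgcs1 and Acat2, against 3.30% of all genes. Of these 2 genes, Hmgcs1 fell and Acat2 was not called. H2-Eb1 (223 and 129 CPM) carries the Y box on the strand of the gene.
H2-Eb1, chr17:34305795-34305822, plus strand: tcctttgatgCTGATTGGctcccagcac

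Genes of B cells, natural killer cells and mature T cells were lower as groups, while most plasma cell genes were not called. Of 10 plasma cell genes, 2 fell and 8 were not called. Their median was -0.28, or -0.18 over members at 1 CPM or more. Of 18 B cell genes, 17 fell and none rose, with a median of -0.96. Ighm, the heavy chain of IgM, was at 186 CPM in fed and 98.6 CPM in fasting lung, Ighd at 61.1 and 33.0 CPM, and the low affinity IgE receptor Fcer2a at 25.2 and 9.09 CPM. Of 18 natural killer cell genes, 15 fell and none rose, among them the granzyme Gzma (20.7 and 9.20 CPM) and the receptor chain Il2rb (21 and 13.8 CPM). Of 23 genes of mature T cells, 18 fell and none rose. Their summed level was 718 CPM in fed and 653 CPM in fasting lung. This sum includes S1pr1 (312 and 408 CPM) and Klf2 (166 and 140 CPM), which were not called. The receptor constant regions Trbc2 and Trbc1 were at 23.4 and 5.24 CPM and at 14.2 and 3.66 CPM, and the kinase Lck at 19.0 and 5.52 CPM. Cd3e, Cd3d and Cd3g stand in both the mature T cell list and the thymocyte list. Beside these falls, the summed thymocyte level went from 535 to 198 CPM, and its part in the T cell result was not tested.

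In spleen, which holds mature lymphocytes in large numbers, 3 of these genes were near level between treatments. Trbc2 was at 85.8 CPM in fed and 89.1 CPM in fasting spleen, Lck at 80.7 and 78.6 CPM, and Ighm at 4880 and 5195 CPM. Spleen list medians were -0.09 for B cells, -0.07 for natural killer cells and 0.02 for mature T cells. In some other tissues the B cell and natural killer cell lists were lower in fasting. The B cell median was -1.06 in brown adipose (10 of 10 genes negative) and -0.73 in heart (12 of 14), and the natural killer cell median was -0.85 in white adipose (8 of 9). For mature T cells the medians of the other tissues lay between -0.51 (liver) and 0.49 (kidney). Satb1, a chromatin organiser of thymocytes, fell in lung from 109 to 35.6 CPM, and Gm36931, an unconfirmed transcript on the same strand inside Satb1, from 14.3 to 3.72 CPM. In spleen Satb1 was at 440 and 411 CPM.

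Myeloid genes were mixed. Of 17 genes of monocytes and interstitial macrophages, 6 fell and none rose, led by Plac8 (28.7 and 10.2 CPM) and Adgre4 (18.9 and 7.13 CPM), and Cx3cr1 went from 19.5 to 8.40 CPM. Lyz2 (4121 and 3737 CPM) and Apoe (310 and 306 CPM) were not called. Of 22 neutrophil genes, 9 fell and 3 rose. Il1b, the inflammatory cytokine with the largest fall given by the selection rule, was at 19.2 CPM in fed and 2.94 CPM in fasting lung. Retnlg (11.5 and 4.93 CPM) and Csf3r, the receptor of the growth factor G-CSF (36.8 and 17.4 CPM), fell. The granule protein genes Ngp (5.22 and 9.45 CPM) and Camp (1.83 and 3.41 CPM) rose with Ltf, while the granule genes Elane, Mpo, Lcn2 and Mmp8 were not called. Haemoglobin and other red cell genes were not called in any of 13 members, with Hbb-bs at 1818 and 1788 CPM. In the cytokine list 7 fell and 1 rose of 33 genes with a count, and Cxcl12, which retains leukocytes in tissue, went from 175 to 85.7 CPM.

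Of 48 cell division genes, 28 fell, none rose and 20 were not called, and 47 had a negative log2 fold change, with a median of -0.69. Mki67, the proliferation antigen, was at 57.6 CPM in fed and 30.7 CPM in fasting lung, and Ccnb1, the mitotic cyclin, at 3.53 and 1.44 CPM. Uhrf1, which copies DNA methylation to new strands, fell from 11.8 to 2.88 CPM. The medians of this list in the other tissues lay between -0.67 (liver) and -0.06 (spleen). The thymocyte genes, which mark a dividing population, moved the same way, and their part was not tested.

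Some immediate early genes fell. Of 30 genes, 12 fell, 1 rose and 17 were not called, with a median of -0.28. Ccn1, a matrix-associated signalling protein at chr3:145646976-145649981, was at 217 CPM in fed and 68.3 CPM in fasting lung. Egr3 was at 6.62 and 1.30 CPM, Nr4a1 at 128 and 45.4 CPM and Fos at 129 and 66.0 CPM. Ccn2, the nearest relative of Ccn1, went the other way, from 108 to 200 CPM. Dusp1 and Klf6 were not called, with Klf6 at 304 and 312 CPM.

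**Figure D4:**
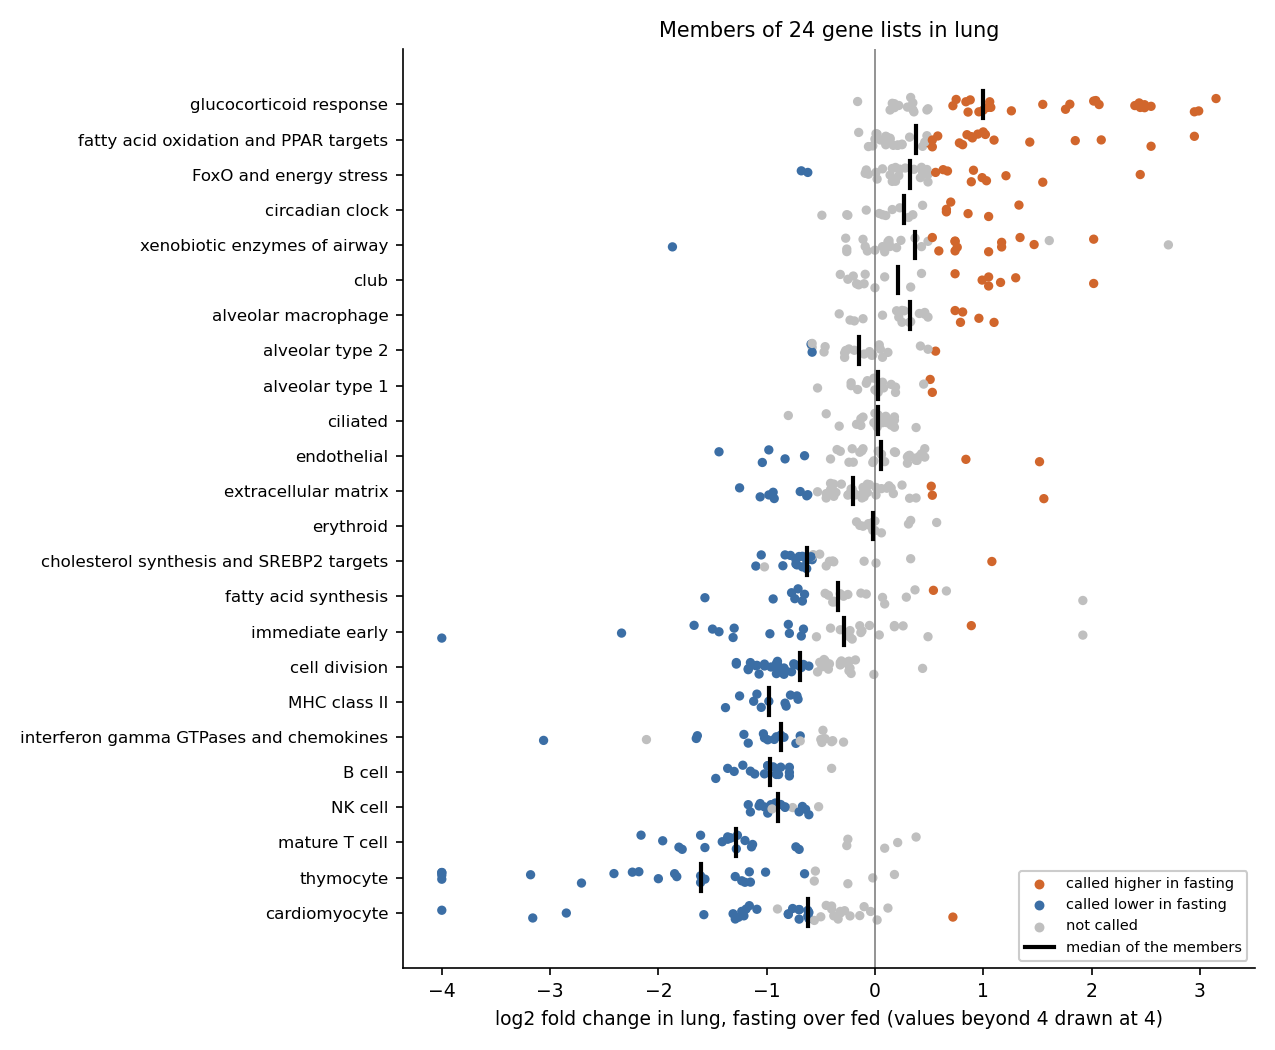
Log2 fold change (fasting over fed) in lung of each member of 24 gene lists, 1 point per gene, orange where called higher, blue where called lower and grey where not called, with a black bar at the list median. The glucocorticoid list centres on 1.0, the ciliated list on 0.03 and the MHC class II list on -0.98.

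Small structural RNAs gave large but uncertain changes. The 7SL RNA gene Rn7s1, part of the signal recognition particle, was at 852 CPM in fed and 198 CPM in fasting lung, and its copy Gm24447 at 391 and 74.9 CPM. Another copy, Rn7s2, was at 334 CPM in fed and 1102 CPM in fasting lung, so that near-identical copies moved in opposite directions. Reads can be assigned to any of these copies, and the 3 values are uncertain.

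The largest lung changes were set beside the other 7 tissues. Of the 12 largest rises, 8 were also positive in all 7 other tissues, namely Fam107a, Hif3a, Angptl4, Fkbp5, Map3k6, AC154912.5, Ddit4 and Zbtb16. For Fkbp5 the other log2 fold changes ran from 0.53 (kidney) to 3.65 (brown adipose), and the lung value of 2.49 lay within them. For Map3k6 they ran from 0.87 to 2.26, below the lung value of 2.49. Of the 12 largest falls, Uhrf1, Cyp1a1 and Bcl6b were negative in all 7. Trbc2, Lck, Ccn1 and the 7SL genes had both signs among the other tissues. The glucocorticoid list was positive in all 8 tissues, with medians of members at 1 CPM or more between 0.77 (kidney) and 1.5 (muscle) in the other 7.

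Whether the fasting change in lung lay outside the spread of the other tissues was tested with edgeR's quasi-likelihood fit of all 16 libraries. The 8 tissues came from the same 3 mice per treatment, so the libraries come from 2 pools of animals and are not independent, and the fit takes tissues as if they were. No gene of 24930 passed an adjusted p of 0.05 after Benjamini-Hochberg adjustment, and 444 had an unadjusted p under 0.05. With 6 residual degrees of freedom and no replicate library, a difference that misses the threshold is not shown to be absent. For Fkbp5 the lung change was not called different (adjusted p = 1 by edgeR), and for Gm24447, the named gene nearest the threshold, the adjusted p was 0.0925. With DESeq2's Wald test, 9 genes passed: Rag1, Arpp21 and Satb1 of thymocytes, Bmp10 and Nppb of heart, the 7SL copies Rn7s1, Rn7s6 and Gm24447, and Ggt5 (15.7 and 9.65 CPM). No gene of the lung's own lists is therefore described as particular to lung.

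**Figure D5:**
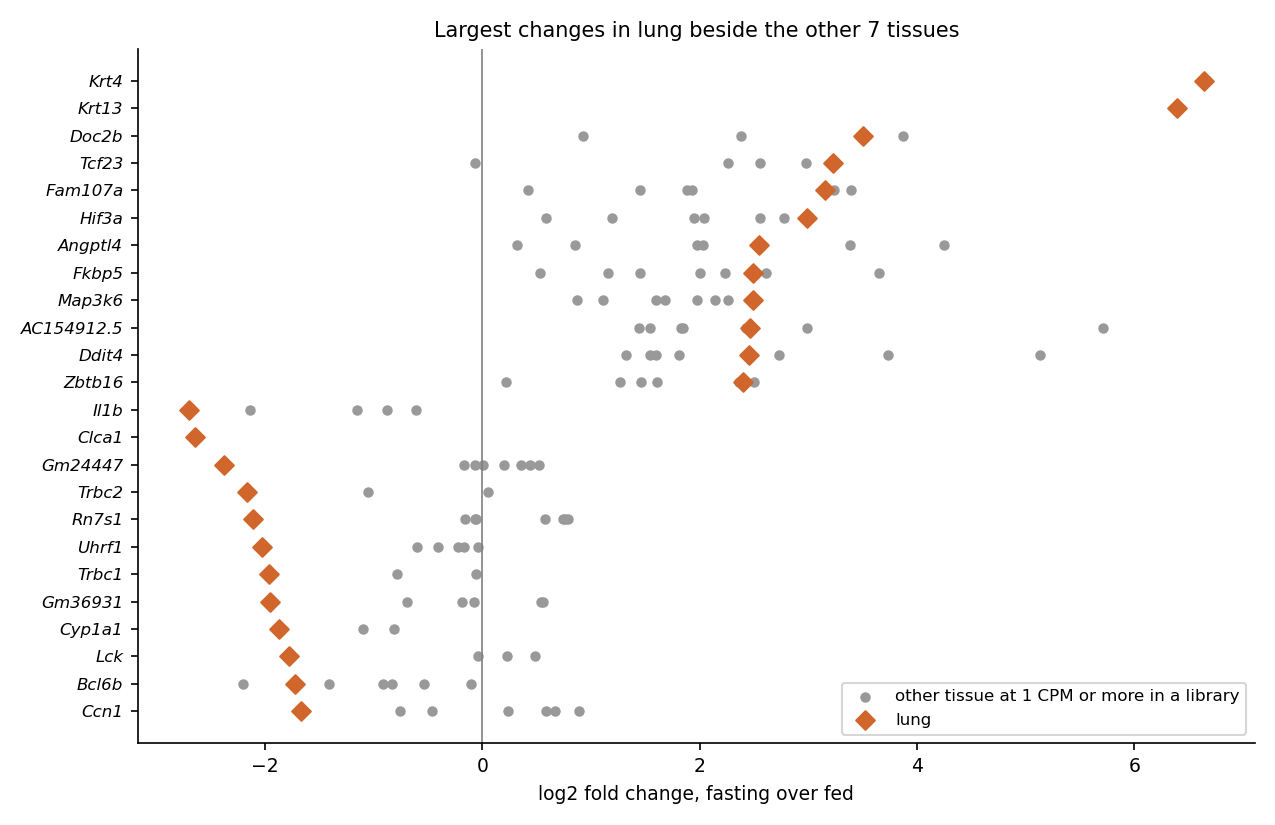
Log2 fold change (fasting over fed) of the 12 largest rises and 12 largest falls of lung, with lung as an orange diamond and each other tissue with at least 1 CPM in a library as a grey point. The diamond of Fkbp5 lies at 2.49 among grey points from 0.53 to 3.65, while Krt4, Krt13 and Clca1 have no grey point.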

How the data were processed

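Lung tissue of 3 mice per treatment was pooled by the authors into 1 library each. Per the labels and methods, the authors used fastp 0.23.2 for trimming of the strand-specific paired reads, FastQC 0.11.8 for quality, HISAT2 2.2.1.0 for alignment (GRCm38) and featureCounts of Subread 2.0 for counting on GENCODE release 24. The deposited values are raw counts per gene, beside an other value, the gene length, which was not used for tests. The strand setting of the counting is not given in the sources used here, so reads of overlapping and antisense genes cannot be told apart. Near-identical copies may share reads.

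Symbols came from GENCODE release 21 of the same build, with 55144 of 55385 genes matched. Promoter sequences came from RefSeq (GRCm38.p6). CPM was the count scaled to a library total of 1000000. Fold changes divided fasting by fed CPM after 0.01 was added to each, and Fisher's exact test (two-sided, scipy 1.17.1) called genes at an unadjusted p under 0.01 and a log2 fold change above 0.5 in size, as in the study's methods. The test covers counting error between 2 libraries only. Calls in the text also held with TMM factors. The Fisher step and edgeR's lung by fasting term were tested on simulated data. The Fisher step found 200 of 200 genes changed by a fold of 2 and made 93 false calls among 29797 genes. The lung by fasting term found 2 of 100 genes changed by a fold of 2 and 37 of 100 changed by a fold of 4. It therefore misses most lung changes of these sizes. Intervals are 95% exact and cover counting error only. The lung by fasting term was fitted with edgeR 4.0.16 (tissue, treatment and lung by treatment, 6 residual degrees of freedom), with DESeq2 1.42.0 as an alternative. R was 4.3.3.

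Named genes were the 12 largest rises and 12 largest falls among called genes with at least 10 CPM, leaving out the thymocyte, thymic epithelium, cardiomyocyte, skeletal muscle and adipocyte lists and genes at least 20 times higher in another tissue. From each list the 2 members with the most CPM and the 2 largest movers each way were added, with further members chosen after their values were seen. The tissue, the 51 lists and the motifs were chosen with earlier results of these data known. Alternatives were other scalings, pseudocounts, filters, thresholds and tests. No column of the count table was left unmapped. Some list members are counted in their lists but not reported here by name.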

Additional observations from a re-analysis of the deposited data

Results flagged for a closer look

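Pmvk, a called gene at 1 CPM or more in every tissue, stood out because its change in lung ran against every other tissue. The log2 fold change was 1.08 in lung, from 29.3 CPM in fed to 61.7 CPM in fasting, and between -1.69 (liver) and -0.25 (spleen) in the other 7 tissues, where the gene was at 6.17 CPM or more in every library. In edgeR's fit over all 16 libraries the difference was 1.85 with a standard error of 0.45 and an adjusted p of 1. Esm1 was also higher in fasting lung (15.2 and 28.9 CPM, log2 fold change 0.93) and lower or near level in the other 7 tissues (-4.33 to -0.06), but was under 1 CPM in both libraries of brown adipose and muscle. Each tissue and treatment has 1 library.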

How the results depend on the processing

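No paired analysis was possible because lung has 1 pooled library a treatment, so replicate numbers pair nothing within it. The fit over 16 libraries sets fed beside fasting within each tissue through its tissue term. The counts on library totals, 835 higher and 2019 lower, stayed within 1.5 times under the other scalings, a pseudocount of 1 CPM, a filter at 1 CPM and the removal of the genes kept apart, an alternative chosen after seeing the data. A log2 fold change above 1 left 324 higher and 817 lower genes. With edgeR's exact test, an assumed coefficient of variation of 0.2 left 176 and 408, and one of 0.4 left 40 and 49, so the number of calls rests on counting error alone being taken as the spread. Of 161 named genes called on library totals, 131 were lost at a coefficient of variation of 0.4. None was lost or reversed with TMM factors. The named movers were picked among genes called under both scalings, so for them this was fixed by the selection. List medians moved by more than 0.5 of the members' interquartile range in 4 lists: natural killer cell (-0.66) and thymic epithelium (-0.58) with a pseudocount of 1 CPM, erythroid (0.06) with TMM factors and mast cell (-0.45) with members at 1 CPM or more. For the lung by fasting term, leaving out each other tissue gave 0 to 4 genes at an adjusted p of 0.05, with 4 (Nppb, Bmp10, Arpp21 and Gm24447) only without white adipose. Leaving out both adipose tissues gave 4 and DESeq2's Wald test 9, while library totals and the filter of 10 counts gave 0. The causes were not tested. At 3 counts the floor was 0.0998 CPM in fed and 0.0832 CPM in fasting lung.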

Other observations

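Few genes were called in some other lists. Of 17 heat shock and cold-inducible genes none was called, with a median of -0.24, 14 negative log2 fold changes and Hspa8 at 647 CPM in fed and 754 CPM in fasting lung. Of 22 chaperones of the endoplasmic reticulum, Herpud1, which takes part in the disposal of misfolded proteins, rose from 129 to 232 CPM, and Calr and Sdf2l1 fell, with a median of -0.18. In the hypoxia list, Hif3a, Bnip3 (41.3 to 77.5 CPM) and Pfkfb3 rose and Egln3 fell among 21 genes, while Vegfa was at 825 and 607 CPM and was not called. The median of this list was -0.1, with 15 negative log2 fold changes. Hif3a is also counted in the glucocorticoid list, Bnip3 in the energy stress list and Pfkfb3 in glucose use. Spp1, the secreted phosphoprotein osteopontin, chosen after its values were seen, was at 57.2 CPM in fed and 236 CPM in fasting lung. It was among the genes counted above for the lung by fasting term without both adipose tissues, beside Nppb, Bmp10 and Gm24447. There its lung change lay 2.58 above the other tissues on the log2 scale. In the fit of all 16 libraries it did not pass.

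Of 17 genes of smooth muscle and pericytes only Lmod1 rose (15.8 to 24.8 CPM), and none of 12 genes of nerve and Schwann cells was called. In the mesothelial list, Upk3b (53.7 to 34.3 CPM) and Lrrn4 (27.1 to 16.7 CPM) fell among 8 genes. Of 10 dendritic cell genes, 4 fell, among them Ccl22 (7.29 to 2.83 CPM) and Siglech (5.99 to 2.49 CPM), and Zbtb46 was at 57.8 and 59.2 CPM.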
